A study of Rattus norvegicus with 12 samples.

Results

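The transcriptome of the sham-operated rat retina was described from 3 input libraries, the libraries without immunoprecipitation, out of the 12 libraries of a study of m6A RNA methylation after traumatic optic neuropathy. They were chosen by their labels alone, as the input samples of the sham group. The animals were male Sprague-Dawley rats, an albino strain, 7 to 8 weeks old and weighing 220 to 250 g. In the sham operation the optic nerve was exposed under pentobarbital anesthesia but not clamped, and the retinas were collected 12 h later, after perfusion with cold PBS. Each library came from the pooled retinas of 4 rats, called pools 1, 2 and 3 here, so a difference between single rats cannot be seen. The RNA was depleted of ribosomal RNA, and no unoperated retina is among the samples used here, so the values are those of a retina after anesthesia and orbital surgery. The expression table lists 22714 protein-coding genes in FPKM, the fragments of a gene scaled by the length of its transcript and by the size of the library. Of these, 11900 (52.4%) reached at least 1 FPKM in all 3 pools and are called expressed below.

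The retina turns light into nerve signals. Rods, which serve dim light, and cones, which serve daylight and color, hold the visual pigments. Light on the pigment activates the G protein transducin, transducin activates a phosphodiesterase that breaks down cyclic GMP, and the cyclic GMP-gated channels of the outer segment close. The signal passes by ribbon synapses to bipolar and horizontal cells, is shaped by amacrine cells, and leaves the eye through the axons of retinal ganglion cells, the cells whose axons form the optic nerve. Müller glia span the retina and clear glutamate, and the pigment epithelium behind the photoreceptors regenerates the chromophore of the pigment. Rats are nocturnal, and their photoreceptors are mostly rods.

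Photoreceptor genes are known, mostly from mice, to be under the control of the homeobox factor Crx, and rod genes also of the factor Nrl. Promoters of 6 genes described below are shown because they hold the letters that Crx recognizes. The sequences are the 250 bases before the gene start in RefSeq, build GRCr8, 5′ to 3′ on the strand of the gene, with the letters of the Crx core motif (TAATCC, or GGATTA on the other strand) in capitals. Of the 54 genes of the 3 photoreceptor lists, 42 had a promoter entry. Those without an entry included Gnat1, Gnat2, Gnb3, Gngt2, Pde6g, Pde6c, Cngb3, Grk1, Rcvrn and Rp1. The first is Gngt1, the gamma subunit of rod transducin, at chr4:32960695-32960944 (plus strand).
Gngt1: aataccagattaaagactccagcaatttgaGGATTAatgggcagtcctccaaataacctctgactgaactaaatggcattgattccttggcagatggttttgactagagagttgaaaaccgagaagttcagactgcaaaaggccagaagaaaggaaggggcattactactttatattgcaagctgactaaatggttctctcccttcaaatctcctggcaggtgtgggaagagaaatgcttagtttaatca
The second is Prph2, the tetraspanin that shapes the rim of the outer segment discs, at chr9:21579075-21579324 (minus strand).
Prph2: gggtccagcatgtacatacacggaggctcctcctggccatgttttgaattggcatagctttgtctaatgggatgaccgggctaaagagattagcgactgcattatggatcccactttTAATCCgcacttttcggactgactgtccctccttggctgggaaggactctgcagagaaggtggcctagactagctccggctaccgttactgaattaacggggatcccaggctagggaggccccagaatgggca
The third is Pde6a, a catalytic subunit of the rod phosphodiesterase, at chr18:56946999-56947248 (plus strand).
Pde6a: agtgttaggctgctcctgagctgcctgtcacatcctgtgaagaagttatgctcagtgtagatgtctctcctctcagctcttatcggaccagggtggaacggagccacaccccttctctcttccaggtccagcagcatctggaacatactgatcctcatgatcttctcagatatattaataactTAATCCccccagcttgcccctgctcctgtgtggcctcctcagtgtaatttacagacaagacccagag
The fourth is Cngb1, the beta subunit of the rod channel, at chr19:9732396-9732645 (plus strand).
Cngb1: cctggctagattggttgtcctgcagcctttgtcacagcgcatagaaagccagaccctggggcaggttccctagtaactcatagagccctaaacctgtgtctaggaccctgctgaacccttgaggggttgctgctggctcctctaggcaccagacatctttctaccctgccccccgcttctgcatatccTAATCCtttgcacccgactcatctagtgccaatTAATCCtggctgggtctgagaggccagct
The fifth is Crx itself, at chr1:85681853-85682102 (minus strand).
Crx: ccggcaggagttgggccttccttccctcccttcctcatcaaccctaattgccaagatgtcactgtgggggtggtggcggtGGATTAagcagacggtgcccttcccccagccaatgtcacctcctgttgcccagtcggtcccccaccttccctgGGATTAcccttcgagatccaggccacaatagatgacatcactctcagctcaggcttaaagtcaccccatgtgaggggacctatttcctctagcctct
The sixth is Opn1sw, the short-wavelength cone opsin, at chr4:58945826-58946075 (minus strand).
Opn1sw: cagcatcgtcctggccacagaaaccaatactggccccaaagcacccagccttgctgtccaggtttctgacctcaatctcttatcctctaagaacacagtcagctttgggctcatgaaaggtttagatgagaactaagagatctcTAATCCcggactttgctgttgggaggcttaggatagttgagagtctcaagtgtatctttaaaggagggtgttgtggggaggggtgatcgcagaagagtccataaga

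The Crx letters began 220 bases before the start in Gngt1, 133 in Prph2, 67 in Pde6a and 106 in Opn1sw. Cngb1 held them at 62 and 29 bases before its start, and Crx at 170 and 97. In all, 13 of the 42 photoreceptor promoters (31.0%) held the letters on either strand, against 2121 of 33469 promoters in the RefSeq table (6.34%). The letters were in 3 of 12 rod promoters, 2 of 8 cone promoters and 8 of 22 promoters of genes that rods and cones share. Among the other lists, 1 of 14 promoters of Müller glia genes held them, 1 of 13 of ganglion cell genes, 2 of 14 of bipolar genes and none of 16 of amacrine genes. The core letters of the Nrl site (TGCTGA, or TCAGCA on the other strand) were in 6 of the 42 photoreceptor promoters (14.3%) and in 15.1% of all promoters. By list, they were in 3 of 12 rod promoters, 1 of 8 cone promoters and 2 of 22 promoters of genes that rods and cones share. Of the last, 1 was that of the entry named Gucy2e, whose place among photoreceptor genes was not tested. A match is a run of letters and not a measured binding site, and no test was made on these counts.

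The label of the tissue was checked against Gnat1 and Sag for rods and Glul for Müller glia, which were given as markers. Gnat1, the alpha subunit of rod transducin (ENSRNOG00000017589, chromosome 8, 115788411 to 115793148), was at 3727, 3974 and 3713 FPKM in pools 1, 2 and 3. Sag, the rod arrestin, which ends the light response (ENSRNOG00000018185, chromosome 9, 94646553 to 94702512), was at 2753, 2250.02 and 2616 FPKM. Glul, the glutamine synthetase of Müller glia (ENSRNOG00000049560, chromosome 13, 76294458 to 76303626), was at 1069, 1179.6 and 1229 FPKM. Coordinates are those of the deposited table, whose genome build the sources used here do not state. By mean FPKM, Gnat1 ranked 12, Sag 18 and Glul 27 in the table. The rod markers Gnat1 and Sag thus bore out the label of retina. Glul was abundant too, but whether it came from Müller glia alone was not tested.

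The estimated depth was 4060695 to 4735933 fragments per pool, and the number of genes above 0 was 14071 to 15158. A gene listed at 0 in a pool had no fragments there, a count that an expected level of up to 3 fragments can also give. Intervals and floors cover counting error only, since fragments from amplified libraries are not independent molecules. Between pools, the Pearson correlation of log2(FPKM + 1) over the expressed genes was 0.971 for pools 1 and 2, 0.955 for pools 1 and 3 and 0.959 for pools 2 and 3. These are correlations across genes, which are not independent replicates. Pool 1 stood apart in genes of the lens and ocular surface and pool 3 in genes of the pigment epithelium, with values given beside those lists. With a single group, no test between groups was made and no p-value is given. By the study's methods each pool came from 4 rats, and every error is the SD over the 3 pools.

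A small set of genes held much of the summed FPKM. The 10 most abundant genes made up 17.5% ± 0.641 of the summed FPKM, the 100 most abundant 34.0% ± 0.352 and the 1000 most abundant 59.3% ± 0.494 (SD, n = 3). Nuclear genes alone were more evenly spread, with 8.41% ± 0.225, 21.4% ± 0.381 and 51.0% ± 0.685 for the same numbers of genes. From 485 to 518 genes made up 50% of the FPKM, and from 900 to 968 of the nuclear FPKM. The expressed genes together held 99.3% ± 0.113. Above them, 7116 genes reached 10 FPKM in all 3 pools, 612 reached 100 FPKM and 27 reached 1000 FPKM.

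**Figure D1:**
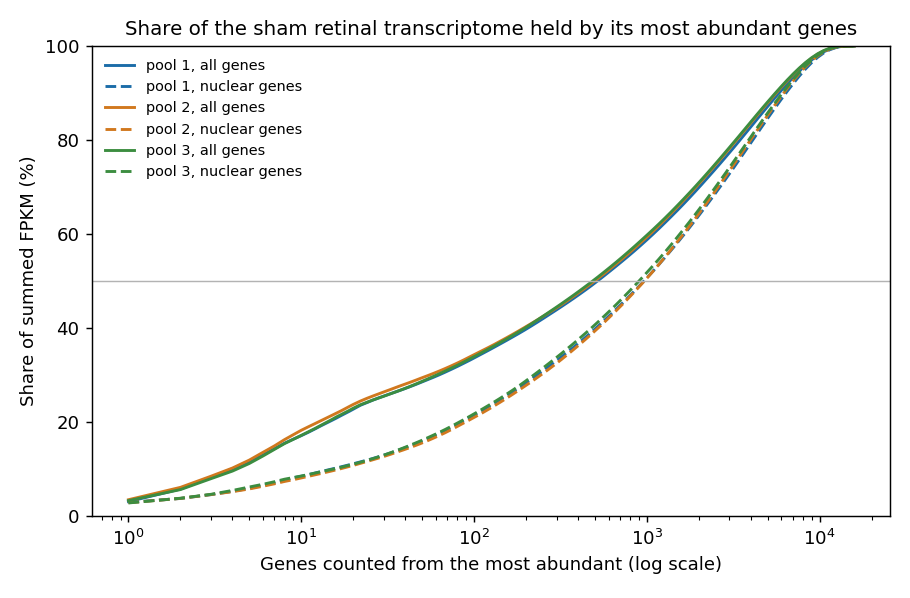
Share of the summed FPKM (%) held by the most abundant genes, against the number of genes counted from the top (log scale), for pools 1 to 3, with all genes as solid lines and nuclear genes as dashed lines. The solid lines pass 50% at 485 to 518 genes and the dashed lines at 900 to 968 genes, and the 3 pools lie close together.

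The limit of 1 FPKM cut through genes with few fragments. Il17rd, a regulator of fibroblast growth factor signaling, was just inside the limit at 2.69, 1.07 and 1.003 FPKM, and Smad9, a factor of BMP signaling, at 1.91, 1.003 and 2.63 FPKM. Lrrc55, an auxiliary subunit of potassium channels, was just outside at 1.11, 0.999 and 1.004 FPKM, and so was Tmem194b at 1.87, 0.998 and 1.65 FPKM. These 4 genes had 7 to 27 fragments in a pool. A further 1758 genes passed the limit in 1 or 2 pools only, and 687 of the 11900 expressed genes had under 10 fragments in their lowest pool. At the other end, 6841 genes were listed at 0 in every pool.

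Of the 27 genes at 1000 FPKM or more in every pool, 13 were the protein genes of the mitochondrial genome and 14 were nuclear. The nuclear set was made up mostly of the phototransduction chain, with 7 genes of the rod list (Gngt1, Gnat1, Sag, Gnb1, Pde6g and Pde6a among them) and 3 of the list shared by rods and cones (Pdc, Prph2 and Rcvrn). The other 4 were Rps29, a protein of the small ribosomal subunit, LOC100360645, annotated as ubiquitin B-like, Cst3, a secreted inhibitor of cysteine proteases, and Glul. FPKM divides by transcript length, so short genes rank high on few fragments. Rps29 reached 3088, 2502 and 3745 FPKM on 778 to 996 fragments and Pde6g reached 1241, 1237 and 1087 FPKM on 160 to 219 fragments, whereas Glul rested on 11221 to 13738 fragments. The leading genes were nearly the same in each pool, since 9 of the top 10, 26 of the top 30 and 88 of the top 100 were shared by all 3 pools.

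All 15 genes of the rod list were expressed, and together they held 5.68% ± 0.0462 of the FPKM (SD, n = 3). Their summed level was 30260.2, 29858 and 30908 FPKM in pools 1, 2 and 3. Over all genes of the table, 52.4% were expressed and the median was 2.74 FPKM, against a median of 726 FPKM over the rod list. In a bulk sample, fewer cells of a type and less RNA per cell cannot be told apart, and this holds for every class described here.

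Of the rod transducin subunits, alpha (Gnat1) was at 3805 ± 147 FPKM, beta (Gnb1) at 2429 ± 87.9 FPKM and gamma (Gngt1) at 3873 ± 557 FPKM. Gngt1 was at 3561, 3542 and 4517 FPKM, highest in pool 3. Gnb1 is used by G proteins of many other cells as well, so its level cannot be assigned to rods alone.

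The rod phosphodiesterase is built of catalytic alpha and beta subunits and an inhibitory gamma subunit. Pde6a was at 1112, 1169 and 1047 FPKM and Pde6b at 698, 686 and 795 FPKM. Pde6g was at 1189 ± 87.9 FPKM. The channel that cyclic GMP opens was far lower in its beta than in its alpha subunit. Cnga1 was at 452, 559.8 and 569.9 FPKM, and Cngb1, the subunit whose promoter holds the Crx letters at 2 places, was at 119, 117 and 115 FPKM. Slc24a1, the exchanger that removes calcium from the rod outer segment, was at 322, 352 and 299 FPKM.

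Sag was at 2539.8 ± 260.05 FPKM, lowest in pool 2. The rod factors Nrl and Nr2e3, which set rod fate and repress cone genes, were at 586, 604 and 663 FPKM and 215, 223 and 254 FPKM. Both were highest in pool 3. Samd7, a transcriptional repressor in rods, was at 79.8, 74.5 and 62.9 FPKM, and Esrrb, a nuclear receptor of rods, was the lowest of the list at 32.3, 33.4 and 38.3 FPKM.

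Of the 13 cone genes, 12 were expressed, and the list held 0.0837% ± 0.00494 of the FPKM (SD, n = 3). Its summed level was 470.3, 418 and 453 FPKM, with a median of 28.4 FPKM over the genes. The most abundant was Pde6h, the inhibitory gamma subunit of the cone phosphodiesterase, at 99.8, 86.7 and 105 FPKM on 83 to 88 fragments. Gnb3, the beta subunit of cone transducin, was at 82.8, 74.4 and 85.5 FPKM, and Gnat2, its alpha subunit, at 69.9, 61.2 and 74.7 FPKM. Whether cones alone make Gnb3 was not tested, so its level is not assigned to them alone. Arr3, the cone arrestin, was at 42.2, 26.1 and 46.3 FPKM and was lowest in pool 2. Ccdc136 was at 27.7, 30.3 and 27.2 FPKM. Thrb, the thyroid hormone receptor that sets the type of cone opsin, was at 24.1, 23.1 and 25.3 FPKM.

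The cone opsins differed in level. Opn1mw, the middle-wavelength opsin, was at 30.02, 33.7 and 34.6 FPKM, and Opn1sw, the short-wavelength opsin, at 17.4, 10.997 and 12.6 FPKM. Opn1mw was the higher of the pair in every pool.

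Each rod gene was compared with its cone counterpart in 11 pairs, and the rod gene was higher in every pool in all of them. The summed level of the 10 rod genes was 69.8, 79.0 and 74.4 times that of the 10 cone genes in pools 1, 2 and 3, a mean of 74.4 ± 4.61 (SD, n = 3). The median over the 11 pairs was 58.2 ± 6.00. The lowest mean ratio was 12.4 ± 1.97, for Pde6g over Pde6h. Gnat1 over Gnat2 was 56.0 ± 7.93, and Gnb1 over Gnb3 was 30.2 ± 3.30. Neither Gnb1 nor Gnb3 was shown to belong to rods or cones alone. Pde6a over Pde6c was 57.7 ± 4.84 and Pde6b over Pde6c 37.9 ± 5.99. Pde6c, the catalytic subunit of cones, was at 21.2, 18.9 and 17.8 FPKM. The ratio of the arrestins, Sag over Arr3, was 69.3 ± 15.3.

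In 9 of the 11 pairs the highest pool ratio was under 3 times the lowest, and the exceptions were the pairs of Gngt2 and Cnga3. Gngt2, the gamma subunit of cone transducin, was at 42.3, 43.3 and 10.5 FPKM on 54, 61 and 13 fragments, so the value of pool 3 has an exact 95% Poisson interval of 5.61 to 18.0 FPKM, below that of pool 1 (31.7 to 55.1 FPKM). Gngt1 over Gngt2 was therefore 84.3, 81.9 and 428. Cnga3, the alpha subunit of the cone channel, was at 1.31, 2.06 and 0.338 FPKM on 12, 21 and 3 fragments and was the cone gene that missed the limit. Its ratio of Cnga1 over Cnga3, at 346, 271 and 1684, was too poorly counted to be ranked among the others. Cngb3, the beta subunit, was at 9.07, 4.47 and 10.1 FPKM, and Cngb1 over Cngb3 was 16.8 ± 8.04.

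**Figure D2:**
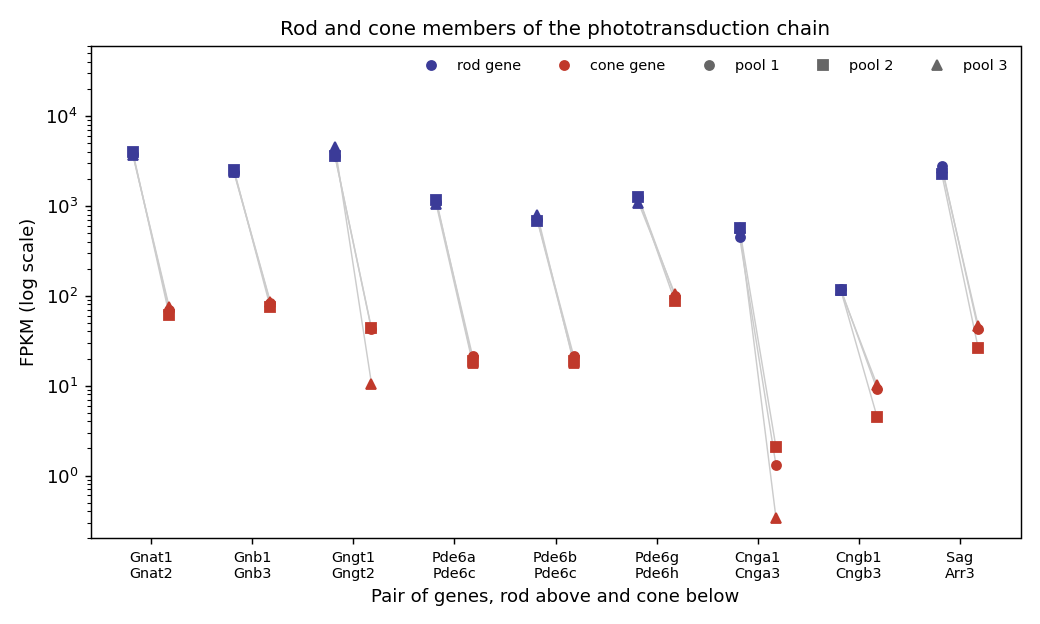
FPKM (log scale) of the rod gene (left point of each pair) and the cone gene (right point) of 9 pairs of phototransduction genes in pools 1 to 3 (circle, square, triangle), joined within a pool. The rod points lie above the cone points in all 9 pairs, and the cone points of Gngt2 and Cnga3 are the most spread.

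The genes used by rods and cones alike were at high levels too, with 25 of 26 expressed, a share of 2.69% ± 0.153 of the FPKM and a median of 352 FPKM. Their sum was 13837, 13764 and 15517 FPKM, and 14 of the 25 expressed genes were highest in pool 3. Of all 11900 expressed genes, 34.4% were highest in pool 1, 29.4% in pool 2 and 36.2% in pool 3. The entry named Gucy2e, on chromosome 1 in build GRCr8, was listed at 0 in all 3 pools. Whether this entry is a photoreceptor gene of the rat was not tested, so its 0 is not read as a silent photoreceptor gene. Pdc, the phosducin that binds the beta and gamma subunits of transducin, was at 2470.01, 2681 and 3272 FPKM. Prph2, whose promoter is printed above, was at 2363, 2147 and 2466 FPKM, and Rom1, its partner in the disc rim, was at 1013, 955 and 1036 FPKM. Rcvrn, the calcium sensor recoverin, was at 1506, 1483 and 1597 FPKM.

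The guanylate cyclase genes restore cyclic GMP with the help of calcium-binding activators. The activators Guca1b and Guca1a were at 565, 502 and 648 FPKM and 404, 369 and 511 FPKM. The cyclases were lower, with Gucy2f at 139, 143 and 137 FPKM and the entry named Gucy2d at 101, 89.2 and 105 FPKM. Grk1, a kinase that shuts off the light response, was at 88.8, 75.2 and 61.1 FPKM. Rp1, a microtubule protein of the outer segment axoneme, was at 608, 719 and 769.9 FPKM on 19575 to 25676 fragments. Unc119 and Aipl1, which carry and fold lipid-modified proteins, were at 746, 725 and 872 FPKM and 653, 691 and 769.8 FPKM. Crx was at 460.01, 485 and 534 FPKM.

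Genes of the inner retina were lower than those of rods. Of the bipolar genes, 18 of 19 were expressed with a median of 41.996 FPKM and a sum of 1489.9, 1602 and 1660.3 FPKM, a share of 0.296% ± 0.0137 of the FPKM. Pcp2, a regulator of G proteins in ON bipolar cells, was at 419, 438 and 420.1 FPKM, and Gng13, a G protein gamma subunit of these cells, at 253, 293 and 419 FPKM. Trpm1, the channel that opens when light falls on ON bipolar cells, was at 139, 153 and 149.6 FPKM, whereas Grm6, the glutamate receptor that holds it closed, was at 28.9, 30.1 and 22.5 FPKM. Prkca, the kinase of rod bipolar cells, was at 102, 127 and 109 FPKM. Vsx1 and Grik1, which mark OFF cone bipolar cells, were at 10.002 and 42.9 FPKM on average. Bhlhe23, the factor that missed the limit, was at 0.544, 5.90 and 5.63 FPKM.

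The horizontal cell list, the shortest of the neuronal lists, had the lowest sum. Of its genes 3 of 6 were expressed, with a sum of 103, 104 and 108 FPKM that was mostly Prox1 and Calb1, both of which other retinal cells also use. Prox1 was at 55.5, 62.3 and 62.9 FPKM and Calb1 at 36.1, 30.3 and 32.99 FPKM. The more restricted Onecut1 was at 5.57, 8.59 and 4.92 FPKM. Lhx1, a factor of horizontal cells, had 14, 12 and 0 fragments, and Gja10, their gap junction protein, was at 1.69, 0.762 and 3.67 FPKM on 5 to 21 fragments.

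Amacrine genes were expressed in 20 of 22 cases, with a median of 20.9 FPKM and a sum of 801, 851 and 823 FPKM. The most abundant was Calb2, calretinin, at 186, 175 and 197 FPKM. Slc6a9, the transporter for glycine, which with GABA is a transmitter of these cells, was at 111, 111 and 95.9 FPKM. Gad1 and Gad2, which make GABA, were at 54.4, 72.9 and 63.1 FPKM and 23.3, 28.3 and 27.5 FPKM. The genes of the rarer types were low, with Chat of the starburst cells at 5.60, 4.56 and 2.76 FPKM and Th of the dopaminergic cells at 4.79, 3.56 and 3.80 FPKM. Ptf1a, a factor of developing amacrine cells, was listed at 0 in all 3 pools, and Npy was at 1.67, 0 and 0 FPKM on 0 to 2 fragments.

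Retinal ganglion cells, the cells cut off from the brain by injury of the optic nerve, were read from 22 genes, of which 20 were expressed. Their sum was 729, 816 and 865 FPKM, a share of 0.150% ± 0.0116 of the FPKM, and their median was 20.4 FPKM. The share is that of the list, and the part of other cells in it was not tested. The most abundant was Sncg, gamma-synuclein, at 214, 231 and 299 FPKM, highest in pool 3. Thy1, a surface glycoprotein, was at 98.6, 93.1 and 89.2 FPKM. The neurofilament genes ran from Nefl at 82.3, 106 and 119 FPKM over Nefh at 28.7, 34.2 and 35.7 FPKM to Nefm at 17.5, 25.3 and 18.99 FPKM. Stmn2, a tubulin-binding protein of axons, was at 46.4, 57.9 and 58.2 FPKM. Jam2, an adhesion molecule, was at 46.6, 46.1 and 44.03 FPKM, Chrna6, a nicotinic receptor subunit, at 36.8, 33.3 and 38.8 FPKM and Nrn1, neuritin, at 25.7, 36.5 and 27.8 FPKM. Opn4, the melanopsin of the intrinsically photosensitive ganglion cells, was at 21.8, 27.2 and 35.1 FPKM.

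The transcription factors of the list differed in level. Ebf1 was at 19.7, 25.4 and 18.1 FPKM and Ebf3 at 8.60, 11.99 and 10.9 FPKM, and Eomes, which marks a subset of ganglion cells, was at 2.63, 5.14 and 9.76 FPKM. Of the Pou4f factors that define these cells, Pou4f1 was at 5.32, 3.20 and 2.62 FPKM, Pou4f2 at 2.35, 3.85 and 2.95 FPKM and Pou4f3 at 1.16, 1.89 and 2.17 FPKM. Isl2 was at 0.835, 1.32 and 7.56 FPKM on 4, 7 and 35 fragments, high in pool 3, where the exact 95% Poisson interval was 5.27 to 10.5 FPKM against 0.530 to 2.72 FPKM in pool 2. Rbpms, an RNA-binding protein that marks all ganglion cells, was at 22.8, 18.3 and 4.61 FPKM and was lowest in pool 3 on 34, 30 and 8 fragments. Tbr1 was at 0.474, 0.961 and 1.47 FPKM. The 22 genes thus did not order the pools alike, and their median coefficient of variation was 19.4%. The list is spread over genes of few and of many fragments, and over all expressed genes the median was 31.2% at 10 to 30 fragments, 20.03% at 30 to 100, 12.8% at 100 to 300 and 8.60% at 300 to 1000 fragments.

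All 17 Müller glia genes were expressed, with a share of 0.659% ± 0.0284 of the FPKM, a sum of 3648, 3348 and 3565 FPKM and a median of 65.8 FPKM. Glul led at 1159 ± 82.1 FPKM. Apoe, the lipid carrier, was at 709, 528 and 621 FPKM and Clu, clusterin, at 510.4, 403 and 409.7 FPKM, both highest in pool 1. Dkk3, a secreted protein of the Dickkopf family, was at 508, 502 and 507 FPKM. Vim, the intermediate filament vimentin, was at 249, 163 and 181 FPKM, and Rlbp1, the retinaldehyde-binding protein, at 94.1, 93.3 and 96.7 FPKM. Slc1a3, the glutamate transporter, was at 73.7, 93.4 and 85.2 FPKM, and Dbi, the acyl-CoA-binding protein, at 99.5, 36.7 and 78.9 FPKM on 32 to 79 fragments. The water channel Aqp4 was at 55.1, 70.7 and 71.6 FPKM and the potassium channel Kcnj10 at 20.2, 24.02 and 25.3 FPKM.

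The astrocyte list was mixed. S100b, which other glia also express, was at 36.3, 39.6 and 52.3 FPKM, and Gfap, the filament that marks astrocytes and reactive Müller glia, at 10.1, 7.28 and 9.58 FPKM on 94 to 118 fragments. Pdgfra, the growth factor receptor that marks retinal astrocytes, was at 6.59, 4.67 and 4.64 FPKM. Aldh1l1 was at 0, 0.0768 and 0 FPKM, and Pax2, the factor that defines astrocytes of the retina and optic nerve head, was listed at 0 in all 3 pools. Of the oligodendrocyte genes 2 of 9 were expressed, with Cnp, an enzyme of myelin, at 10.8, 10.4 and 10.8 FPKM. The myelin genes Mbp at 0.357, 0 and 0 FPKM and Mog at 0.486, 0.146 and 1.01 FPKM were at or near 0, as was Mal outside pool 1 (5.25, 0.757 and 0.435 FPKM) and Sox10 outside pool 3 (0.912, 1.37 and 3.15 FPKM).

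Microglia, the resident immune cells, gave 10 of 14 expressed genes with a sum of 70.3, 58.7 and 75.8 FPKM. Csf1r, the receptor for their growth factor, was at 6.36, 5.38 and 8.68 FPKM. Aif1, the Iba1 antigen, was at 5.95, 6.80 and 8.38 FPKM on 11 to 14 fragments, and Tyrobp, an adaptor of immune receptors, at 7.83, 2.37 and 8.12 FPKM. Ptprc, the common leukocyte antigen, stayed below 1 FPKM at 0.620, 0.516 and 0.395 FPKM. Of the neutrophil genes, S100a8, S100a9, Mpo, Elane, Ngp and Camp were listed at 0 in all 3 pools, and Lcn2, which glia also make, was at 14.5, 4.36 and 11.3 FPKM.

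Endothelial genes were expressed in 11 of 13 cases with a sum of 156, 173 and 185 FPKM. Kdr, a receptor for vascular endothelial growth factor, dominated it at 93.8, 110.1 and 99.5 FPKM, whereas Pecam1 was at 2.42, 2.30 and 4.87 FPKM and Cdh5 at 3.09, 1.86 and 2.98 FPKM. Kdr is also known from retinal neurons and glia, so its level cannot be assigned to vessels alone. Cldn5, of the tight junctions, was at 22.6, 21.5 and 33.4 FPKM, Flt1, a receptor for the same growth factor, at 9.70, 11.2 and 10.3 FPKM and Esam, an adhesion molecule, at 7.85, 6.95 and 12.3 FPKM. Of the pericyte and smooth muscle genes 6 of 9 were expressed, and their sum, 66.8, 60.6 and 109.7 FPKM, was highest in pool 3. Rgs5, a regulator of G protein signaling in pericytes, was at 36.1, 32.02 and 56.6 FPKM. Tagln and Myh11, contractile proteins of smooth muscle, were at 9.01, 11.8 and 28.7 FPKM and 7.05, 5.81 and 13.7 FPKM, and Pdgfrb, the pericyte receptor, at 4.67, 3.84 and 4.16 FPKM.

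**Figure D3:**
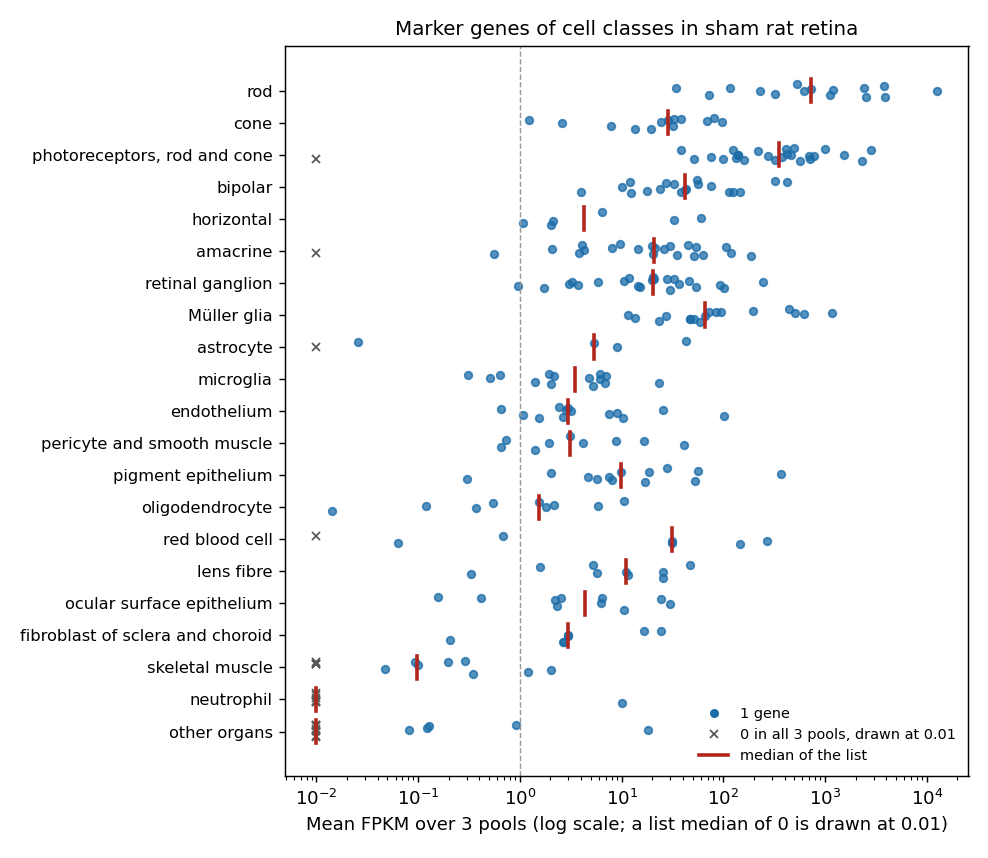
Mean FPKM over 3 pools (log scale) of each marker gene, by cell class, with the median of each list as a red bar, genes at 0 in all 3 pools as crosses and a dashed line at 1 FPKM. The rod list has the highest median (726 FPKM), and the lists of skeletal muscle, neutrophils and other organs lie at or near 0.

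The pigment epithelium lies against the retina, and 11 of 13 genes of that tissue were expressed. Their sum was 432, 491 and 830.5 FPKM, and 9 of the 11 were highest in pool 3, against 36.2% of all expressed genes. Ttr, transthyretin, was the most abundant at 264, 331 and 523 FPKM. Rgr, an opsin of the pigment epithelium that Müller glia also hold, was at 41.6, 50.3 and 77.3 FPKM. Tyrp1 and Pmel, proteins of the pigment granule, were at 41.03, 25.9 and 92.9 FPKM and 13.01, 8.32 and 34.1 FPKM. Enpp2, autotaxin, was at 34.7, 22.9 and 27.3 FPKM. Rpe65, the isomerase of the visual cycle, was at 13.7, 17.1 and 20.4 FPKM, and Best1, a channel of the pigment epithelium, at 0.242, 0.655 and 0 FPKM.

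The visual cycle recycles the chromophore between photoreceptors, pigment epithelium and Müller glia, and all 14 of its genes were expressed. Those of photoreceptors were the highest, with Rbp3, the carrier between the cells, at 446, 472 and 469.6 FPKM, Rdh11, a retinol dehydrogenase, at 222, 231 and 281 FPKM and Abca4, the disc transporter, at 223, 221 and 206 FPKM. The enzymes of the pigment epithelium were at the low end, with Lrat, which makes retinyl esters, at 4.61, 9.25 and 15.9 FPKM and Rdh5 at 4.99, 9.23 and 10.05 FPKM. Lrat, Rdh5, Rpe65 and Rgr were all highest in pool 3, and the part of residual pigment epithelium in their values was not tested.

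Crystallins, the main proteins of the lens, which retinal cells also make at lower levels, spread widely between the pools. Of 15 crystallin genes 14 were expressed, and all 14 were highest in pool 1, against 34.4% of all expressed genes. Their sum was 8172, 5052 and 3283 FPKM in pools 1, 2 and 3, a share of 1.03% ± 0.472 of the FPKM (SD, n = 3). Cryaa, the alpha A chaperone, was at 2764, 1650.2 and 979 FPKM, and Crybb2 at 1499, 1068 and 681 FPKM. Cryab, the small heat shock protein made in many tissues, was at 751, 549.6 and 350.3 FPKM, and Cryba1 at 727, 536 and 411 FPKM. The gamma crystallins, which lens fibres make, spread the most, with Crygd at 259, 59.5 and 31.8 FPKM and Crygc at 139, 37.2 and 12.4 FPKM.

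The defining genes of lens fibres were low in comparison, with 6 of 9 expressed. Mip, the lens aquaporin, was at 35.3, 16.9 and 24.5 FPKM and Lim2 at 26.6, 21.95 and 28.4 FPKM. The list summed to 169, 100.04 and 131 FPKM, of which 32.9 FPKM in pool 3 came from Lenep on 1 fragment. Bfsp2, a filament protein of lens fibres, was at 14.2, 9.42 and 11.1 FPKM. The part of residual lens in the crystallin values was not tested.

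Genes of the ocular surface epithelium were highest in pool 1 as well. Their sum was 210.2, 29.8 and 15.5 FPKM, and 4 of 10 were expressed. Krt12, the keratin of the corneal epithelium, was at 74.9, 6.77 and 7.97 FPKM and Krt5, of basal epithelial cells, at 64.4, 8.54 and 0 FPKM. Krt13, of the conjunctiva, was at 23.1, 5.30 and 3.57 FPKM and Krt15 at 11.8, 5.34 and 1.89 FPKM. Aldh3a1, an abundant enzyme of the cornea that is in none of the lists and was named after its values were seen, was at 56.7, 5.66 and 3.55 FPKM. Of the genes of fibroblasts of sclera and choroid, Fmod, fibromodulin, was at 34.7, 16.9 and 21.1 FPKM, Dcn, decorin, at 8.02, 4.68 and 36.9 FPKM, and Col1a1, of collagen I, at 4.33, 0.678 and 3.93 FPKM. Dcn was highest in pool 3 and Col1a1 lowest in pool 2.

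Genes of other tissues were mostly at or near 0. Of 12 skeletal muscle genes Acta1 alone reached the limit, at 1.79, 2.10 and 2.22 FPKM, and Myh4, Tnnt3, Tnnc2 and Mb were listed at 0 in all 3 pools. The genes of other organs were at 0 in all 3 pools for Alb, Ins1, Ins2, Umod, Prm1 and Prm2, among others. The member above the limit was Myh6, a cardiac myosin heavy chain, at 17.2, 21.1 and 16.2 FPKM on 423 to 635 fragments. Hemoglobin genes, whose copies resemble each other so that reads may be split among them, were present, with Hba1 at 274, 216 and 309 FPKM, Hba2 at 167, 139.5 and 134 FPKM, Hbb at 31.1, 19.1 and 44.5 FPKM and Hbb-b1 at 30.1, 30.6 and 33.1 FPKM. Of the other red cell genes, Alas2, the first enzyme of heme synthesis, was at 0.532, 0.960 and 0.551 FPKM and Ahsp was listed at 0 in all 3 pools. None of the 983 olfactory receptor genes was expressed, and 965 of them were listed at 0 in all 3 pools.

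The 13 protein genes of the mitochondrial genome held 17.3% ± 0.748 of the FPKM but 6.14% ± 0.282 of the fragments (SD, n = 3), since FPKM divides by length and several are short. Mt-co1, subunit 1 of cytochrome oxidase, was the most abundant gene of the table at 16563, 18661 and 17992 FPKM on 99875 to 124796 fragments. Mt-atp8, a short subunit of the ATP synthase, ranked next at 14109, 13954 and 12518 FPKM on only 597 to 866 fragments. Its reading frame overlaps that of Mt-atp6 (8089, 8916 and 8690.4 FPKM), and fragments of the overlap cannot be told apart. Mt-co3 was at 10003, 8750.4 and 8618 FPKM, Mt-nd4l at 6959, 9299 and 8785 FPKM and Mt-co2 at 7413, 7321 and 7689 FPKM. Mt-cyb, the cytochrome b of complex III, was at 6225, 7034 and 6624 FPKM. The subunits of complex I ran down to Mt-nd5 at 2058, 2492 and 2451 FPKM, with ND1 at 4604, 5597 and 4949 FPKM, Mt-nd4 at 3957, 4954 and 4146 FPKM, ND3 at 3817, 3316 and 3269.9 FPKM, Mt-nd6 at 2932, 2816 and 3135 FPKM and Mt-nd2 at 2391, 3077 and 2444 FPKM between.

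The nuclear genes of the respiratory chain and ATP synthase were expressed in 74 of 80 cases and held 1.99% ± 0.188 of the FPKM. The leading genes were Cox6c at 499.9, 596 and 801 FPKM, Atp5b at 606, 546 and 629 FPKM, Atp5i at 607, 485 and 559 FPKM and Cox8a at 559.6, 504 and 464 FPKM. Of the 74 expressed genes 49 were highest in pool 3, as were 36.2% of all expressed genes. The next 4 were Atp5j2 at 461, 378 and 616 FPKM, Atp5l at 301, 313 and 433 FPKM, Cox4i1 at 338, 282 and 338 FPKM and Atp5a1 at 309, 288 and 348 FPKM.

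Photoreceptors are known for making lactate from glucose even with oxygen present, and 20 of 21 genes of glycolysis were expressed, with a sum of 6065, 6227 and 6299 FPKM. The median coefficient of variation of the members was 5.47%, beside 7.00% over all expressed genes of 1000 to 3000 fragments and 6.80% over those of 3000 fragments and over, the groups in which most of them lie. Gapdh was at 930.1, 941 and 872 FPKM, Pkm, the last kinase of the pathway, at 759, 875 and 879.8 FPKM, Eno1 at 806, 825 and 853 FPKM and Aldoa at 816, 774 and 807 FPKM. Ldha, which makes lactate, was at 541, 500.1 and 576 FPKM, and Ldhb at 89.8, 85.5 and 88.8 FPKM. Hk2, the hexokinase of photoreceptors, was at 115, 141 and 135 FPKM, and Hk1 at 85.8, 93.02 and 93.04 FPKM. The glucose transporter Slc2a1 was at 145, 137 and 153 FPKM, and Slc2a3, a transporter of neurons, was not expressed, with 8, 0 and 2 fragments.

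Synaptic genes were close to this. All 18 genes of the ribbon synapse and vesicle release were expressed, with a sum of 4230.04, 4569 and 4392 FPKM and a median coefficient of variation of 5.33%. Cplx4, the complexin of photoreceptor ribbons, was at 786, 946 and 883 FPKM, Snap25, of the fusion machinery, at 529, 525 and 498 FPKM, Slc17a7, the vesicular glutamate transporter, at 514, 484 and 495 FPKM and Syp, synaptophysin, at 452, 485 and 469 FPKM. Cacna1f, the calcium channel of photoreceptor terminals, was at 136, 117 and 117 FPKM. Stx3, the syntaxin of ribbon synapses, was at 118, 117 and 117 FPKM, and Bsn, the scaffold bassoon, at 30.05, 30.6 and 26.4 FPKM.

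Of the 32 transcription factors of the retina 31 were expressed. The 4 most abundant were Nrl, Crx, Nr2e3 and Neurod1, all of them active in photoreceptors, with Neurod1 at 216, 243 and 213 FPKM. Pax6, of amacrine and ganglion cells, was at 109, 116 and 118 FPKM and Rorb at 69.1, 90.4 and 75.96 FPKM. Otx2, which acts before Crx, was the factor that missed the limit. It was at 0.710, 20.3 and 0.544 FPKM on 3, 111 and 3 fragments, so pool 2 lay far above the other pools, with an exact 95% Poisson interval of 16.7 to 24.5 FPKM against 0.146 to 2.08 FPKM in pool 1. Crx did not show such a gap.

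The m6A machinery, the subject of the study, was expressed in all 15 matched genes, with a sum of 777, 847 and 768 FPKM and a median of 39.5 FPKM. The writer core was at 29.05, 26.7 and 24.4 FPKM for Mettl3, the catalytic subunit, 18.1, 18.8 and 21.5 FPKM for Mettl14, its partner, and 56.7, 59.5 and 59.3 FPKM for Wtap, their adaptor. The erasers Alkbh5 and Fto were at 48.3, 58.8 and 52.4 FPKM and 35.7, 37.7 and 38.7 FPKM. Of the readers, Hnrnpa2b1 was the highest at 288, 318 and 278 FPKM, Ythdc1, of the nucleus, was at 51.5, 60.5 and 54.4 FPKM and Ythdf3, of the cytoplasm, at 50.6, 55.3 and 46.3 FPKM. Ythdc2 was the lowest at 6.69, 4.87 and 6.87 FPKM.

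Of the genes of the immediate early and injury response 13 of 19 were expressed (68.4%), with a median of 8.55 FPKM, against 52.4% and 2.74 FPKM over all genes of the table. Mt2A and Mt1, metallothioneins that bind metal ions, were at 50.1, 37.6 and 49.1 FPKM and 21.2, 40.6 and 67.2 FPKM, on 22 to 27 and 12 to 36 fragments. Jun, an immediate early factor, was at 33.5, 41.2 and 20.5 FPKM and Fos, its partner, at 5.77, 4.48 and 3.48 FPKM. Atf3, a factor of injured ganglion cells, was at 8.18, 15.2 and 6.45 FPKM, and Stat3, the factor of cytokine signaling, at 16.3, 16.9 and 17.9 FPKM. Edn2, the endothelin of stressed photoreceptors, was listed at 0 in all 3 pools. Whether these levels are those of an unoperated retina was not tested.

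Protein synthesis was seen through 84 of 115 expressed genes of the cytosolic ribosome, which held 4.26% ± 0.408 of the FPKM. After Rps29 came Rpl34 at 942, 1100.1 and 1409 FPKM, Rplp1 at 823, 981 and 906 FPKM and Rpl26 at 582, 595 and 769 FPKM, and Rps26, Rps23 and Rps15 at 599.7 to 611 FPKM on average. Most of these genes have near-identical copies in the genome, 13 of the 115 entries were listed at 0 in all 3 pools, and reads may have been split among copies. The sum was lowest in pool 2, at 23077, 20267 and 25017 FPKM in pools 1, 2 and 3. Histones followed with 38 of 54 expressed, led by an entry of Hist1h4b on chromosome 17 at 782, 509.99 and 1155 FPKM and by H3f3b, the replacement histone of resting cells, at 582, 699 and 1035 FPKM. Among the other histones, Hist3h2a averaged 169.8 FPKM, Hist2h4 134 FPKM and Hist1h1d 123 FPKM. The histone H4 genes are near-identical to each other. Of 40 proteasome genes 37 were expressed, with Psma4 the most abundant at 101, 119.98 and 126 FPKM.

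All 14 housekeeping genes were expressed, but they were not all abundant. Eef1a1, the elongation factor, was at 933, 723 and 931 FPKM and Actb, beta-actin, at 731, 618 and 720.4 FPKM. Ppia, cyclophilin A, was at 362, 390.4 and 383 FPKM. Hprt1 was at 2.23, 3.82 and 6.23 FPKM on 10 to 27 fragments, low for a gene often used as a reference.

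The spread between pools was set against depth. Over the 11900 expressed genes the median coefficient of variation was 13.9% (quartiles 8.09% and 23.9%), and 34.3% of the genes were under 10%. The median was 6.80% for genes of 3000 fragments and over and 39.1% for genes of under 10 fragments. Counting alone would give a median of 1.25% and 31.5% in these groups. The median dispersion index, the variance of the fragments divided by their mean, was 2.76, against 0.693 for counting alone. The median absolute difference on the log2(FPKM + 1) scale was 0.19 between pools 1 and 2, 0.23 between pools 1 and 3 and 0.22 between pools 2 and 3. Pool 3 was the farthest from the middle for 39.3% of the genes, pool 1 for 31.6% and pool 2 for 29.1%.

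**Figure D4:**
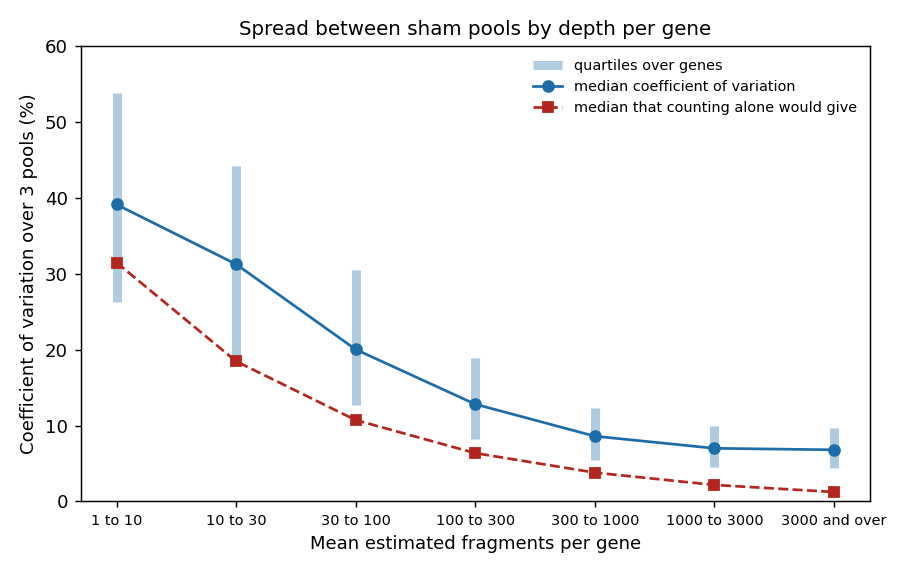
Coefficient of variation over the 3 pools (%) of expressed genes, grouped by the mean estimated fragments per gene, as the median (circles) with the quartiles over genes (bars), and the median that counting alone would give (squares, dashed). The observed median lies above the counting line in every group, at 39.1% for the fewest and 6.80% for the most fragments.

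Of the 6972 genes averaging 100 fragments or more, 147 differed by over 2 times between the highest and the lowest pool and 38 by over 3 times. Of the 147, 85 were highest in pool 1, 23 in pool 2 and 39 in pool 3. Over all expressed genes, 34.4% were highest in pool 1, 29.4% in pool 2 and 36.2% in pool 3. That is a different set, which also holds genes averaging under 100 fragments, and the shares over the 6972 genes were not counted. The count of the 147 was added after the data were seen. A ranking on FPKM alone had led to genes with few fragments, 32 of them at 0 in a pool. With 0 counted as 3 fragments, the largest ratio was that of Krt5, at 279, 41 and 0 fragments. Prpf4b, a splicing kinase, had 259, 64 and 0 fragments. CEP170, a centrosomal protein, was at 0.657, 0.651 and 35.1 FPKM on 10, 11 and 517 fragments, and Hnrnpab, an RNA-binding protein, at 2.19, 22.1 and 57.4 FPKM on 14, 154 and 354 fragments. LOC100911372, annotated as ribosomal protein S6-like, was at 4.98, 290.2 and 235 FPKM. Several of the most variable entries have near-identical copies, between which the counting could split reads.

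On FPKM alone, the ranking of genes averaging 10 FPKM or more began with Rnf170, a ubiquitin ligase, at 0 fragments in pools 1 and 2 and 35 in pool 3. Behind it came LOC100910855, LOC100911372, CEP170, LOC100910177, Rabif, QK, LOC100912042, LOC100909466, Hnrnpab, Adal, AABR06037396.1, Aldh3a1, a second Hist1h4b entry and AABR06042582.1. Rabif, a chaperone of Rab proteins, had 128, 4 and 149 fragments and QK, an RNA-binding protein, had 84, 5 and 156 fragments, both lowest in pool 2. Of the 32 genes at 0 in a pool, 19 had under 10 fragments in every pool.

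The pools differed by tissue groups and not only by single genes. The lists of ocular surface epithelium and crystallins were highest in pool 1. Those of pigment epithelium and of pericytes with smooth muscle were highest in pool 3. In the pericyte and smooth muscle list this held for 4 of the 6 expressed genes, against 36.2% of all expressed genes. A highest sum in pool 3 was not particular to these lists. The bipolar, ganglion cell, microglia and endothelial sums were highest there too, with 7 of the 10 expressed microglia genes. In the pericyte and smooth muscle list the other genes varied. Pdgfrb was highest in pool 1 and Abcc9, at 3.02, 3.41 and 2.85 FPKM, in pool 2. The neuronal lists moved less. The sum of the rod list ran only from 29858 to 30908 FPKM and that of the amacrine list from 801 to 851 FPKM. The ganglion cell list moved the most of the neuronal lists, from 729 to 865 FPKM, or 1.19 times. That was as much as the endothelial list, also at 1.19 times. Single heat shock genes in none of the lists, named after their values were seen, also differed between pools. Hspa1a, Hsph1 and Dnajb1 were among the genes that differed by over 3 times, so their spread follows from how they were picked. Heat shock genes as a class were not examined. Hspa1a, the inducible Hsp70, was at 669, 205 and 157 FPKM, highest in pool 1, whereas Hsph1, its exchange factor, was at 77.9, 168 and 44.7 FPKM, highest in pool 2. Dnajb1, an Hsp40 co-chaperone, was at 90.6, 98.9 and 26.1 FPKM and Hsp90aa1, the inducible Hsp90, at 1022, 1383 and 945 FPKM, both highest in pool 2 and lowest in pool 3.

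**Figure D5:**
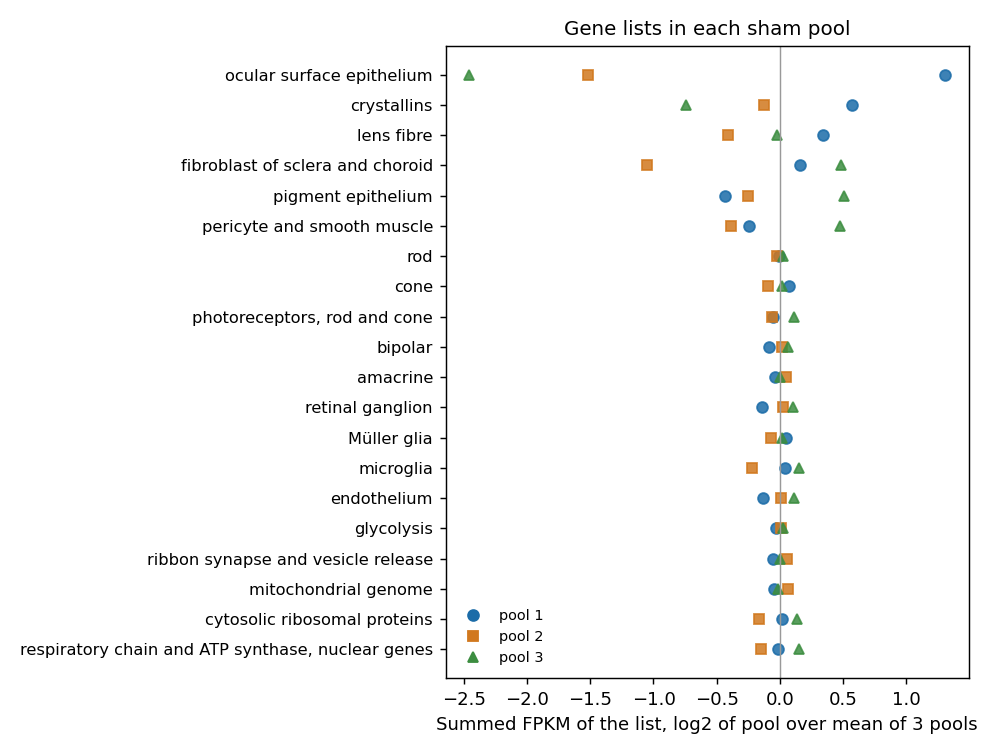
Summed FPKM of each gene list in pools 1 to 3 as log2 of the pool over the mean of the 3 pools. The lists of ocular surface epithelium, crystallins, sclera and choroid, and pigment epithelium are widely spread, and the rod, cone and glycolysis lists lie close to 0.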

How the data were processed

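Retinal RNA of sham-operated rats was measured in 3 input libraries, 1 for each pool of 4 rats. Per the study's methods and the submitters' processing notes, the authors trimmed paired-end reads with cutadapt 1.9.3, aligned them with HISAT2 2.0.4 and made FPKM values with Cufflinks and Cuffdiff. The methods name a human genome build for the RNA-seq step although the samples are rat, and the methods and the labels name different library kits. The deposited table also holds a signal column per library, fragments that the authors had scaled to a common size; dividing by its smallest step gave whole fragments for 96.6% to 97.0% of the nonzero values within a tolerance of 0.02, and these are the fragments given in the text. Every deposited column used was tied to a sample by its name (0 were not). Columns with the authors' own comparisons (fold changes and p-values), the peak lists and the other 9 libraries were not used.

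Genes with at least 1 FPKM in all 3 pools were called expressed. Logarithms were log2(FPKM + 1). Genes were matched to lists by symbol, and where a symbol had several rows the most abundant was taken, except that families found by the start of their symbols (ribosomal, respiratory chain, histone, proteasome and olfactory receptor genes) kept every row; 426 of 439 entries matched by symbol and 2 by another name. The members and lists were chosen with earlier results of these data known. Named were the 30 genes with the highest mean share, the 4 most abundant of each list (8 for rods, cones, glia, ganglion cells and gene families), members at 0 in every pool, both genes of each rod and cone pair, the 15 genes with the largest ratio between pools above a mean of 10 FPKM, and those beside the limit; some genes that this names are not reported here, and other list members were named for their defining role, chosen after their values were seen. The ranking at a mean of 100 fragments was also added after the data were seen, with a floor of 3 fragments. Intervals are exact 95% Poisson intervals. A test of the pools against counting error had been planned but was not run, because the deposited columns are scaled and the fragments read from them are estimates; the dispersion index and the Poisson intervals, which rest on these estimates, are descriptions. The calculations were tested on simulated data. Promoters came from the RefSeq table of build GRCr8. Python 3.11.15, pandas 2.3.3, NumPy 2.4.6, SciPy 1.17.1 and Matplotlib 3.10.9 were used. Alternatives changed the limit, the pools, the unit, the denominator, the pseudocount and the scaling.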

Additional observations from a re-analysis of the deposited data

How the results depend on the processing

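The number of expressed genes, 11900, stayed between 11063 (a limit of 2 FPKM) and 12861 (a mean of 1 FPKM), and between 12033 and 12303 when 1 pool was left out. The shares of the most abundant genes depended on the unit. The top 10 held 15.5% without the most abundant gene, 8.50% of the scaled fragments and 8.41% without the mitochondrial genome, the top 100 held 31.8%, 21.1% and 21.4%, and the top 1000 held 57.9%, 52.6% and 51.0% under the same alternatives. The rod share was 5.88% without the most abundant gene, 4.22% of the scaled fragments, 6.87% without the mitochondrial genome and 5.23% without Gnb1. The most abundant gene, Mt-co1, is not a rod gene, so its omission changed only the total. No alternative left out the most abundant rod gene. The ratio of rod to cone genes was 58.2 as the median over the pairs and 107 on scaled fragments, which are not divided by transcript length. The median difference between pools was 0.24 on the log2 scale for genes with a mean of 0.1 FPKM or more and 0.18 from 10 FPKM. With 1 pool left out at a time, the top 10 held 17.2% to 17.7%, the top 100 33.8% to 34.1%, the top 1000 59.1% to 59.6% and the rods 5.67% to 5.71%, the ratio was 72.1 to 76.7, and the difference was 0.19 (without pool 3) to 0.23. The other pseudocounts, the centring and the omission of the crystallin, ocular surface and pigment epithelium lists moved the spread by less than its SD. The planned test of the pools against counting error and its alternatives were not run. No paired analysis was possible because 1 group was described and no test between groups was made.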

Other observations

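Several of the most abundant nuclear genes were in none of the lists. Pcp4, a calmodulin regulator of neurons, was at 782, 719 and 859.8 FPKM in pools 1, 2 and 3, and Ddx5, an RNA helicase, at 752, 789.7 and 808 FPKM. Tpt1, a translationally controlled tumor protein, was at 722, 714 and 788 FPKM and Tmsb4x, an actin-binding peptide, at 813, 554 and 715 FPKM. Among these 4 genes the highest pool was at most 1.47 times the lowest, in Tmsb4x. Zwint, known as a kinetochore protein of dividing cells and also expressed in neurons, was at 587, 639.5 and 619 FPKM on 4143 to 5010 fragments.

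Other genes outside the lists differed between pools. Optc, opticin, a proteoglycan of the vitreous that the ciliary body makes, was at 149.9, 61.2 and 45.7 FPKM, and Col4a1, a collagen of basement membranes and the lens capsule, at 191, 96.5 and 60.6 FPKM. Both were highest in pool 1, as the crystallins were. Gpnmb, a glycoprotein of pigment cells and macrophages, was at 8.98, 5.03 and 21.4 FPKM, highest in pool 3, as Tyrp1 and Pmel were. Hnrnpa1, an RNA-binding protein with many near-identical copies, was at 19.2, 10.95 and 70.5 FPKM. Il6st, the gp130 subunit of cytokine receptors, was at 1.04, 5.18 and 2.84 FPKM and Lss, an enzyme of cholesterol synthesis, at 11.2, 68.8 and 12.4 FPKM, both highest in pool 2. All of these genes were picked after their values were seen.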
